A study of Mus musculus with 4 samples.

Results

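Cycling matrix fibroblasts were the cells that held transcripts of both the cell division programme and the matrix programme of cancer-associated fibroblasts (CAF). A cell was kept with 500 to 6000 detected genes, at most 10% mitochondrial UMIs (unique molecular identifiers, each marking 1 captured transcript), no *Ptprc* UMI and no *Pax3* UMI. It was a member if at least 4 of 8 cycle genes (*Mki67*, *Top2a*, *Cdk1*, *Birc5*, *Ube2c*, *Prc1*, *Tpx2* and *Ccna2*) and at least 4 of 10 matrix genes (*Mfap4*, *Smim41*, *Cilp*, *Lpl*, *Sfrp1*, *Svep1*, *Dpt*, *Lum*, *Col15a1* and *Postn*) were detected. By this rule 1480 cells were members, of 5579 cells that passed the matrix gate, 21791 kept cells and 24489 barcodes. They were compared with the 3597 matrix-gated cells in which at most 1 cycle gene was detected, called comparison cells below. Because the members were chosen by measured transcripts, every difference from the comparison cells is given as a description with no test.

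The cells came from B16-F1-OVA melanoma tumors, a mouse line that carries ovalbumin, grown in the peritoneal cavity for 14 days. All host mice carried *Cxcl13*-cre-tdTomato and R26R-eGFPflox and are labelled C57Bl/6. Their age was not given in the sources used here. CD45neg CD31neg PDPNhi cells were sorted into tdTomatoneg eGFP+, tdTomato+ eGFPneg, tdTomato+ eGFP+ and tdTomatoneg eGFPneg populations, which is the order of every list of 4 values below. Each population was made into 1 library, so the libraries are different sorted fractions and not replicates, and there was no tumor-free group. The *Cxcl13* promoter drives tdTomato and cre, so tdTomato marks cells in which it is active and eGFP marks cells in which cre has acted. Both male and female mice were used.

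Dividing cells pass through G1, copy their DNA in S phase, prepare for division in G2 and divide in mitosis. Entry into S phase depends on cyclin-dependent kinases and the E2F transcription factors, which raise genes for DNA replication and nucleotide supply. Genes for the spindle and chromosome segregation rise later, and many of them carry a promoter element read by the DREAM and MuvB complexes. Fibroblasts that make matrix secrete collagens and proteoglycans, and in a wound or a tumor some of them also divide, contract and secrete chemokines.

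The 4 libraries held 984 to 11745 barcodes and 10071954 to 90259852 UMIs. Members were deeper than comparison cells, with a median of 14328, 13797, 13946 and 12228 UMIs per member against 8767, 8902, 10128 and 5237 UMIs per comparison cell. A gene is more often detected in a deeper cell. The shares of members by library and the detection of *Mki67*, *Top2a*, *Lum* and *Mfap4* are therefore also given from cells brought to 1 depth. Other detection percentages are as sequenced and were not matched for depth. Of 57 barcodes found in more than 1 library, 6 belonged to members. At least 5 of 12 mesothelial markers were detected in 12.5% of members (6.10%, 2.14%, 0% and 17.9%) and in 2.89% of comparison cells. Members with at least 5 of them had a median of 18622 UMIs, against 11971.5 in members with 0 or 1. The expected number of doublets, removed by Scrublet score, took 305 members (20.6%) and 294 comparison cells (8.17%). Cells with both *Xist* and a Y-linked UMI, a mark that in mixed male and female tissue can come from 2 cells under 1 barcode, made up 5.20% of members (95% interval 4.13 to 6.46, exact binomial) and 2.00% of comparison cells (1.57 to 2.51). Counts of called genes with the Scrublet doublets removed are given with the calls below.

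The members carried the fibroblast genes of their label. At least 1 UMI of *Col1a1* was found in 99.9% of members and 94% of comparison cells, and of the PDGF receptor *Pdgfra* in 74.8% of members and 66.5% of comparison cells. *Pdpn*, which encodes the podoplanin used for the sort, was found in 69.5% of members. Members were deeper, which favors detection. Levels were taken as CPM (counts per 1000000 UMIs, after adding up a group's UMIs in each library). The 10 fibroblast genes summed to 36367, 40434, 37574 and 27481 CPM in members. In comparison cells they summed to 44481, 45393, 45679 and 33015 CPM, higher in each library. The 12 mesothelial markers together reached 263, 197, 141 and 500.02 CPM in members, against 256, 198, 157 and 266 CPM in comparison cells. Melanoma markers summed to 39.6, 50.5, 21 and 246 CPM in members and 52.9, 47, 46.9 and 107 CPM in comparison cells, so both lists were highest in the members of the tdTomatoneg eGFPneg library. Of 10 immune markers the summed level was 18.5 to 53.8 CPM in members and 23.6 to 100.5 CPM in comparison cells. The T cell marker *Cd3e* had 6 UMIs over all members and 0 over comparison cells. Of 8 endothelial markers 5 had too few UMIs to be read, with 5 UMIs of *Cdh5* and 2 of *Tie1* over all members. Red blood cell globins were at or near 0, with at most 6 UMIs for any of 4 genes in members, and the 7 mural markers summed to 22.9 to 71.8 CPM in members and 22.3 to 50.4 CPM in comparison cells.

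Members made up 26.5% of matrix-gated cells (95% interval 25.4 to 27.7). The share was 32.9% (164 of 499 cells) in the tdTomatoneg eGFP+ library, 35.3% (327 of 926) in tdTomato+ eGFPneg, 34.2% (52 of 152) in tdTomato+ eGFP+ and 23.4% (937 of 4002) in tdTomatoneg eGFPneg. The first 3 libraries had overlapping intervals and lay above the interval of 22.1 to 24.8% in the tdTomatoneg eGFPneg library, which was also the shallowest. After every cell was thinned to 3000 UMIs, the shares were 20.5%, 19.6%, 18.6% and 13%, so the tdTomatoneg eGFPneg library was again lowest, with an interval of 11.7 to 14.4% that overlapped only that of the small tdTomato+ eGFP+ library (9.69 to 30.9%). Under a looser gate of at least 2 cycle and 2 matrix genes in these thinned cells, the shares were 28.7%, 31.4%, 30.8% and 26.8%, and the interval of the tdTomatoneg eGFPneg library (25.4 to 28.3%) overlapped those of tdTomatoneg eGFP+ and tdTomato+ eGFP+. The thinning left out 761 matrix-gated cells as too shallow, 707 of them from the tdTomatoneg eGFPneg library. Intervals cover counting error only, and with 1 library a population a difference between populations cannot be told apart from one between preparations. Leaving out the tdTomatoneg eGFPneg library left 543 members and a share of 34.4%.

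The matrix-gated cells themselves were unevenly spread, from 8.56% of kept cells in the tdTomatoneg eGFP+ library to 38.5% in tdTomatoneg eGFPneg. Division was not limited to cells with the matrix genes. At least 4 cycle genes were detected in 4253 of 16212 kept cells that failed the matrix gate, or 26.2% (25.6 to 26.9), and by library in 30.1%, 24.7%, 24.8% and 24.1%. Cells were also split by whether they held only *Xist* or only Y-linked UMIs. A single UMI can be free RNA, so these are marks and do not give the sex of each cell. Among matrix-gated cells with only *Xist*, 28.4% were members (26.4 to 30.5), and among those with only Y-linked UMIs, 32.6% were members (30.1 to 35.1). In the tdTomatoneg eGFPneg library the *Xist*-only share was 23.9% and the Y-only share 32.5%, whereas in tdTomato+ eGFPneg they were 40.8% and 32.4%, so the order of the 2 marks was not the same in each library.

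**Figure D1:**
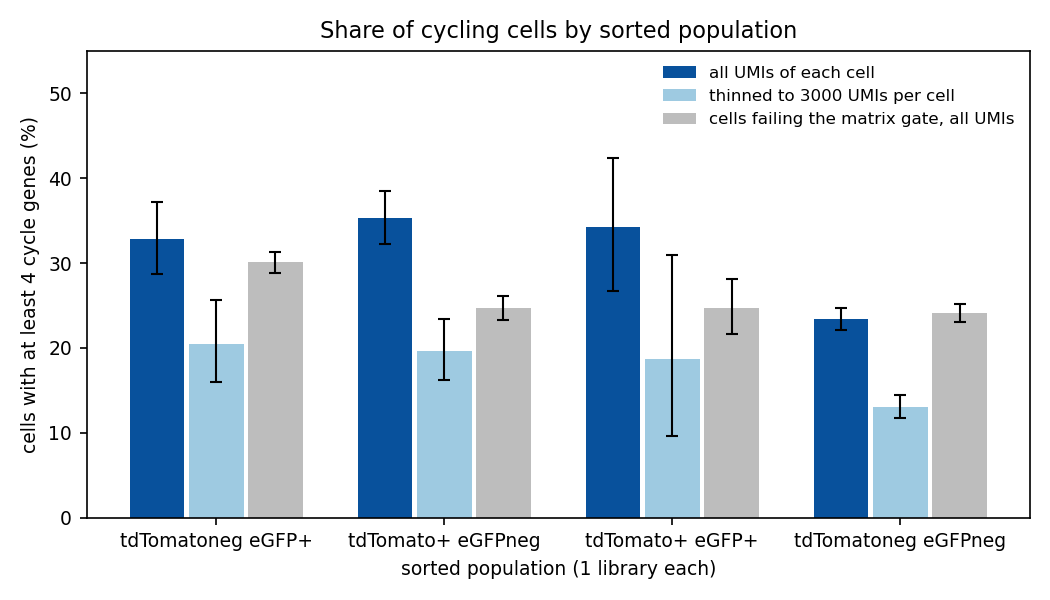
Share of matrix-gated cells that were members (vertical axis, percent) in the 4 sorted populations, with exact 95% binomial intervals, as sequenced and after thinning to 3000 UMIs per cell. The tdTomatoneg eGFPneg library is lowest in both, at 23.4% and 13%.

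The gates had no natural gap at their limits. All 8 cycle genes were detected in 519 members, 35.1% of them, while 191 members held exactly 4. Just outside, 194 matrix-gated cells held 3 cycle genes, with a median of 8934 UMIs against 9768 in cells with 4. On the matrix side 251 members held exactly 4 matrix genes, and 354 cycling cells with 3 matrix genes lay just outside. *Mki67*, the proliferation marker Ki-67, reached 195, 271, 232 and 157 CPM in members and 1.06, 2.52, 1.02 and 3.02 CPM in comparison cells. *Ube2c*, a ubiquitin-conjugating enzyme of mitotic exit, was the most abundant of the 8 in members, at 586, 625, 701 and 581 CPM against 4.58, 3.48, 2.04 and 7.15 CPM. These values were fixed by the rule. In cells thinned to 3000 UMIs, *Mki67* was detected in 38.5% of members and 0.973% of comparison cells, and *Top2a*, a topoisomerase that untangles DNA, in 60.5% and 2.4%.

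The 10 genes of the matrix gate helped to choose both groups, so their levels are a description, and none passed the 1.5-fold limit in each library. The 10 genes summed to 2221, 2381, 1770.3 and 2589.5 CPM in members and 3204, 3111, 2495 and 3939.9 CPM in comparison cells, with a median log2 fold of -0.62. *Lum*, a collagen-binding proteoglycan, was at 159.9, 221, 153 and 311 CPM in members and 325, 356, 225 and 547 CPM in comparison cells, lower in each library. *Mfap4*, a microfibril protein, was at 52.6, 71.9, 23.4 and 186 CPM against 124, 95, 44.8 and 306 CPM. After thinning to 3000 UMIs *Lum* was detected in 47.1% of members and 62.9% of comparison cells, and *Mfap4* in 25.5% and 33.6%. *Postn*, the matrix protein periostin, differed least, at 556, 464, 366 and 502 CPM against 574, 388, 448 and 585 CPM. When the gates were set on a random part of each cell's UMIs, with 1 gene fewer needed in each gate, and the levels read from the rest, the median was -0.55. When every cell was thinned to 1 depth before the gates it was -0.26.

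Genes outside the gates were read where members and comparison cells together held at least 50 UMIs, which left 13089 genes. The ratio of CPM was taken within each library after adding 0.5 UMI to each sum, and a gene was called where the ratio passed 1.5 in the same direction in each of the 4 libraries. By this rule 670 genes were called higher in members, or 5.12%, and 153 lower, or 1.17%. The mean log2 folds given below are means ± SD over the 4 libraries and describe their spread. The median over all genes read was 0.00079, a value tied to the scaling of both groups to 1 total. With median-of-ratios scaling 640 genes were called higher and 186 lower. Without the expected doublets 661 genes were called higher and 163 lower. Leaving out 1 library, which eases the rule, raised the lower calls to 245 without tdTomatoneg eGFP+, 250 without tdTomato+ eGFPneg and 308 without tdTomato+ eGFP+.

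Genes that open and copy DNA were higher in members. Of the replication list, 38 of 39 genes read were called higher and 0 lower, with a median log2 fold of 2.31. When cells were thinned to 1 depth before the gates, 26 of 29 genes read were called higher and the median was 1.47. *Mcm5*, a subunit of the helicase that unwinds DNA, was at 32.2, 34.4, 35.8 and 28.9 CPM in members and 5.29, 5.81, 2.04 and 5.2 CPM in comparison cells, a log2 fold of 2.86 ± 0.65. *Pcna*, the sliding clamp of DNA polymerases, was already present in comparison cells at 41.6, 48, 31.6 and 36.9 CPM and reached 137, 165, 129 and 118 CPM in members. The clamp thus differed less, at 1.80 ± 0.15, than the replication factor *Mcm10* at 4.10 ± 0.98 or the fork protein *Clspn* at 3.85 ± 0.15. *Mcm10* rested on few transcripts, with 183 UMIs in members and 19 in comparison cells. These 4 genes were among the 5.12% of genes read that were called higher.

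Nucleotide supply was uneven within its list. Of its genes, 12 of 19 genes read were called higher and 0 lower, with a median log2 fold of 1.28. In the thinned cells it was 0.83, with 8 of 17 genes called higher. *Rrm2*, the ribonucleotide reductase subunit that is made for S phase, was at 73.8, 79.3, 71.5 and 70.9 CPM in members and 2.47, 2.32, 3.06 and 4.19 CPM in comparison cells. *Tk1*, thymidine kinase, was at 101, 129.6, 121 and 125 CPM against 9.17, 8.13, 3.06 and 9.5 CPM, and *Tyms*, thymidylate synthase, at 266, 238, 282 and 229.6 CPM against 44.1, 34.3, 38.7 and 42.8 CPM. The log2 folds of these 3 enzymes were 4.56 ± 0.44, 4.06 ± 0.72 and 2.66 ± 0.20.

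Of the histone and chromatin packing list, 24 of 26 genes read were called higher and 0 lower, with a median log2 fold of 2.60. The linker histone *H1f5* was at 163, 148, 286 and 164 CPM in members and 2.12, 3.68, 10.2 and 3.63 CPM in comparison cells, and was highest in the tdTomato+ eGFP+ library in both. *H2az1*, a variant histone whose transcript is polyadenylated, was the most abundant at 1383, 1236, 1425 and 1665 CPM against 331, 238, 235 and 379.99 CPM. The condensin subunit *Smc2*, which compacts chromosomes, had a log2 fold of 4.16 ± 0.12, with almost the same ratio in each library. Replication-dependent histone genes, whose transcripts mostly lack a poly(A) tail and are poorly captured by this chemistry, summed to 692, 821, 1081 and 1049.9 CPM in members and 229, 294, 356 and 217 CPM in comparison cells. Of 40 read, 25 were called higher and 1 lower. Near-identical copies within this family can share reads.

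The mitotic lists showed the largest folds, an order that depends on the cycle gate, since mitotic genes such as *Ube2c* helped to choose the members. Of the mitotic kinases and checkpoint genes, 19 of 19 genes read were called higher and 0 lower, with a median log2 fold of 5.21. *Plk1*, the polo kinase that drives entry into mitosis, was at 77.5, 86, 88.8 and 63.7 CPM in members and 1.76, 0.968, 0 and 1.51 CPM in comparison cells. *Bub1*, a spindle checkpoint kinase, was at 50.2, 59.3, 41.9 and 50.6 CPM against 1.06, 0.968, 0 and 0.838 CPM. In both genes the comparison cells of the tdTomato+ eGFP+ library, the smallest, held no UMI, so that the fold of this library rests on the added 0.5 UMI.

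Of the cyclins and ubiquitin genes of the G2 to M step, 14 of 15 genes read were called higher and 0 lower, with a median log2 fold of 3.59. *Ccnb1*, cyclin B1, was at 92.2, 108, 90 and 71.3 CPM in members and 1.41, 1.36, 0 and 1.62 CPM in comparison cells. *Cdc20*, which activates the ubiquitin ligase that ends mitosis, was at 133, 136, 97.4 and 93.1 CPM against 3.53, 4.65, 0 and 3.58 CPM. The G2 inhibitor of that ligase, *Fbxo5*, had a log2 fold of 4.86 ± 0.53. Of the spindle, kinetochore and cytokinesis genes, 39 of 39 genes read were called higher and 0 lower, with a median log2 fold of 4.78. *Cenpf*, a kinetochore protein, was at 259, 300.1, 308 and 235 CPM in members and 3.88, 1.94, 4.08 and 3.24 CPM in comparison cells. *Aspm*, at the spindle poles, had the largest fold of this list at 6.63 ± 1.06, from 1064 UMIs in members and 21 in comparison cells. *Tubb5*, a tubulin that interphase cells also use, had a log2 fold of 1.55 ± 0.08 and was found in 99.8% of members and 77.6% of comparison cells.

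**Figure D2:**
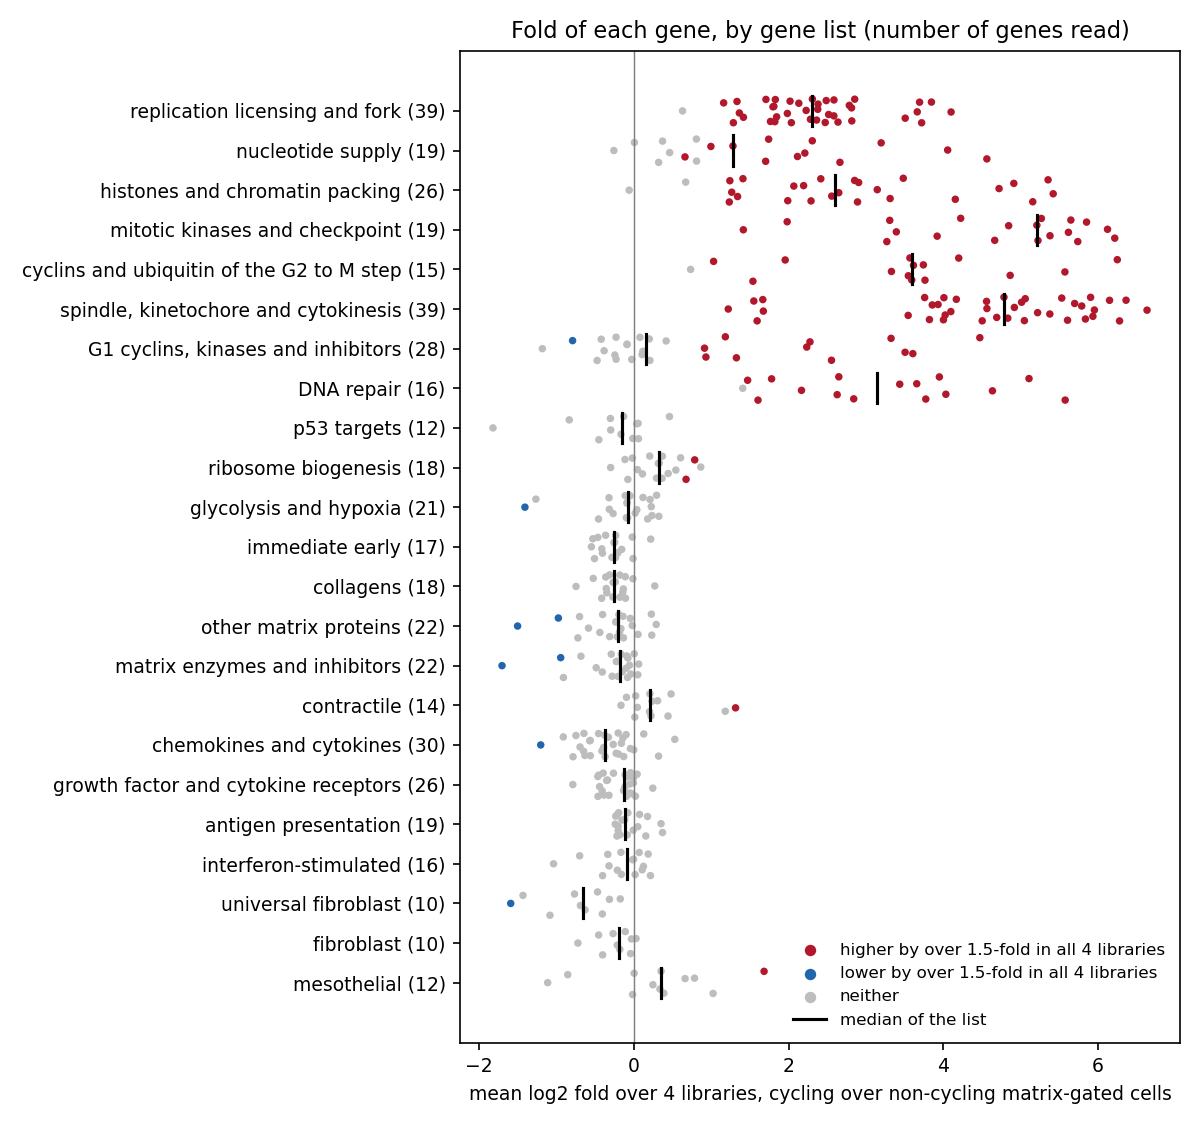
Mean log2 fold of members over comparison cells (horizontal axis) for each gene read of the lists, 1 point per gene with the list's median marked. The mitotic lists have medians of 3.59 to 5.21, and the matrix and signalling lists of -0.37 to 0.21. The order of the division lists depends on the cycle gate.

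Promoters of the division genes were read from RefSeq (build GRCm38.p6) as 300 bases around each annotated start, for the 536 of 670 higher genes that the table held. Of the letters searched on both strands, TTTGAA, the core of the element read by the DREAM and MuvB complexes, was present in 33.6% of higher genes, 14.4% of lower genes, 14.6% of genes read and 20.2% of all 27025 genes. It was in 72.2% of spindle, kinetochore and cytokinesis genes (26 of 36) and in 16.1% of replication genes (5 of 31). The other mitotic lists lay between, with 42.9% of mitotic kinases and checkpoint genes (6 of 14) and 46.2% of G2 to M genes (6 of 13). CCAAT, the letters bound by NF-Y, was in 63.1% of higher genes, 43.3% of genes read and 41.1% of all genes. TTTNGCGC, a core letter pattern of E2F sites, was in 38.7% of replication genes (12 of 31), 9.89% of higher genes, 2.85% of genes read and 1.57% of all genes, and the related TTTNCCGC in 12.5% of higher genes, 4.44% of genes read and 2.55% of all. TTTNGCGC was in 8.33% of DNA repair genes (1 of 12) and in 0 of 18 nucleotide supply genes. A match is a run of letters and not a shown binding site. Printed are 3 promoters of mitotic genes that hold TTTGAA and 1 of a replication gene that holds TTTNGCGC. They were chosen for these patterns, which other genes lack. Upstream of the start, *Plk1* held no TTTGAA and *Pcna* no TTTNGCGC. The bases of each searched pattern are in capitals, and all of them lie upstream of the start. *Cdc20* is chr4:118437344-118437406 (minus strand), *Mki67* is chr7:135716462-135716577 (minus strand), *Ube2c* is chr2:164769691-164769915 (plus strand) and *Mcm5* is chr8:75109346-75109501 (plus strand). CCAAT reads ATTGG and TTTGAA reads TTCAAA where the match lies on the opposite strand, neighboring matches in *Ube2c* run together as CCAATTGG, and in *Mcm5* a pair of TTTNGCGC matches on opposite strands overlap as TTTCGCGCCAAA.
Cdc20: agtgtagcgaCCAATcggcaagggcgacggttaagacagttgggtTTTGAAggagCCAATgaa
Mki67: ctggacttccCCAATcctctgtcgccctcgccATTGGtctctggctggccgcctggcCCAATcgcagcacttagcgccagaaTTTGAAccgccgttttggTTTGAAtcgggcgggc
Ube2c: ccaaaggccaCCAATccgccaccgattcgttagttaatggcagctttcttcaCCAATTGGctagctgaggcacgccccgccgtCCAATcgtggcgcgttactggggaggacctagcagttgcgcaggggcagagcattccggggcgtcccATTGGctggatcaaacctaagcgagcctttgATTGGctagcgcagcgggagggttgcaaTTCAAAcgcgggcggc
Mcm5: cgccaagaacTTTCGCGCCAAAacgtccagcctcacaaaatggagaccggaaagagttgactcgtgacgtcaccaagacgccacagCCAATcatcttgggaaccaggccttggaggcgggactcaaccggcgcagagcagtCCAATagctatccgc

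The genes that start and brake the cycle were mixed. Of the G1 list, 11 of 28 genes read were called higher and 1 lower, with a median log2 fold of 0.16. *Ccne2*, a cyclin of the step into S phase, was at 19.6, 16.1, 25.9 and 21.5 CPM in members and 2.12, 1.74, 1.02 and 2.79 CPM in comparison cells. *E2f8* and *E2f7*, E2F factors that repress transcription late in S phase, had log2 folds of 4.47 ± 1.38 and 3.51 ± 0.32. *Ccnd2*, a D-type cyclin that responds to growth signals, was the 1 gene of the list called lower, at 75.5, 77, 91.2 and 70.9 CPM in members against 143, 152, 144 and 108 CPM. It lost that call in 5 of 22 alternatives while its fold stayed between -0.90 and -0.68. *Ccnd1* was at 89.3, 68.4, 97.4 and 42.3 CPM against 91.3, 102, 90.7 and 23.9 CPM, higher in members only in the tdTomato+ eGFP+ and tdTomatoneg eGFPneg libraries. The kinase *Cdk4* was 1.22 to 1.41 times as high in members, under the limit in each library. The kinase inhibitor *Cdkn1a*, which p53 induces, was at 96.7, 137, 171 and 84.8 CPM in members and 139.99, 171, 211 and 75.4 CPM in comparison cells, and these ranges overlapped.

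DNA repair genes were higher with replication, whereas targets of p53 were not. Of the repair list, 15 of 16 genes read were called higher and 0 lower, with a median log2 fold of 3.14. *Pclaf*, a partner of the PCNA clamp, was at 340.2, 350.00, 411 and 412 CPM in members and 10.9, 8.13, 8.15 and 18 CPM in comparison cells. Of the p53 targets, 0 of 12 genes read were called higher and 0 lower, with a median log2 fold of -0.15, and the death effector *Bax* was at 134, 144, 161 and 148 CPM against 158, 156, 139.6 and 138 CPM. Few genes of ribosome building were called. Of them, 2 of 18 genes read were called higher and 0 lower, with a median log2 fold of 0.32, and those 2 genes, *Nhp2* and *Nop56*, had log2 folds of 0.79 ± 0.20 and 0.68 ± 0.07. They kept their calls in 15 and 14 of 22 alternatives, and in thinned cells the median was 0.098 with 0 of 16 genes called. *Ncl*, the nucleolar protein nucleolin, was at 551, 547, 467 and 443 CPM against 353, 329, 323 and 309.95 CPM, higher in each library without passing 1.5 in each. Of 83 ribosomal protein genes none was called, and their sum was 170630, 147056, 174672 and 190555 CPM in members against 167262, 150610, 158772 and 191368 CPM.

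Of the genes for sugar use and acute stress, 1 passed the limit. Of the glycolysis and hypoxia list, 0 of 21 genes read were called higher and 1 lower, with a median log2 fold of -0.08. The gene called lower was *Adm*, the vasodilator peptide adrenomedullin, at 23.7, 34.8, 19.7 and 41.4 CPM in members against 64.9, 90.2, 51 and 115 CPM, a call kept in 19 of 22 alternatives. Of the immediate early genes, 0 of 17 genes read were called higher and 0 lower, with a median log2 fold of -0.26, and *Fos*, which pairs with *Jun* in the factor AP-1, was at 910.3, 1139.8, 1479 and 1264 CPM against 1149.6, 1245, 1414 and 1477 CPM.

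Collagen transcripts stayed abundant in the dividing cells. Of the collagens, 0 of 18 genes read were called higher and 0 lower, with a median log2 fold of -0.25, and their sum was 39845, 42544, 40851 and 28679 CPM in members against 48044, 47165, 49048 and 32941 CPM in comparison cells. *Col1a1*, a chain of type I collagen, was at 8009.5, 8219, 10254 and 5337 CPM against 8918, 8509, 12035 and 5348 CPM. *Col3a1*, the type III chain and the most abundant, was at 17793, 20621, 16540.4 and 12967 CPM against 22043, 23439.9, 20068 and 15927 CPM, a log2 fold of -0.27 ± 0.06. Both were lower in members in each library and by less than 1.5 times. After thinning the median of the list was -0.04.

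Of the other matrix proteins, 0 of 22 genes read were called higher and 2 lower, with a median log2 fold of -0.20. *Ogn*, the small proteoglycan osteoglycin, was at 40.4, 77.8, 19.7 and 168 CPM in members and 128, 186, 56.1 and 512 CPM in comparison cells, a log2 fold of -1.50 ± 0.18. It was called lower in all 22 alternatives in which it was read, with folds of -1.89 to -1.17. *Efemp1*, an elastic fiber protein, was at 42.8, 60, 32.1 and 99.6 CPM against 81.1, 105, 58.1 and 249.9 CPM but kept its call in only 15 of 22 alternatives, and in cells of 5000 to 20000 UMIs its fold was -0.56 and not called. The proteoglycan *Dcn*, found in 99.4% of members and 99.4% of comparison cells, was at 1747, 2637, 1682 and 2283 CPM against 2860.2, 3654, 3032 and 4133 CPM, lower in each library but not past 1.5 in each. Of the matrix enzymes and inhibitors, 0 of 22 genes read were called higher and 2 lower, with a median log2 fold of -0.18. *Mmp2*, a gelatinase, was at 72.6, 105, 65.3 and 122 CPM against 164, 189, 121 and 224 CPM and kept its call in 19 of 22 alternatives. *Mmp11* was low throughout, with 62 UMIs in members and 169 in comparison cells, and kept its call in 15 of 21 alternatives, with a log2 fold of -0.51 in the split of UMIs. *Timp1*, a protease inhibitor, was at 8351, 7659, 9658 and 7857 CPM against 7943, 7623, 10108 and 6654 CPM.

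Of the contractile list, 1 of 14 genes read were called higher and 0 lower, with a median log2 fold of 0.21. *Acta2*, smooth muscle actin and a mark of myofibroblasts, was at 1371, 1034, 1169 and 1118 CPM in members and 1032, 678, 953 and 729 CPM in comparison cells, higher in each library with a log2 fold of 0.48 ± 0.16 that did not pass 1.5 in each. The called gene, the smooth muscle regulator *Cnn1*, held 88 UMIs in members and 54 in comparison cells and kept its call in 15 of 19 alternatives.

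Of the chemokines and cytokines, 0 of 30 genes read were called higher and 1 lower, with a median log2 fold of -0.37. The gene called was *Cxcl13*, the B cell chemokine whose promoter drives the reporters, at 77.5, 1291, 201 and 124 CPM in members against 136, 2614, 683 and 289 CPM in comparison cells. The tdTomato+ eGFPneg library was highest in both groups, and the tdTomatoneg eGFP+ library lowest. The ratio was 0.494 (95% 0.479 to 0.509) in tdTomato+ eGFPneg, 0.294 (95% 0.246 to 0.35) in tdTomato+ eGFP+, 0.43 (95% 0.406 to 0.455) in tdTomatoneg eGFPneg and 0.568 (95% 0.475 to 0.677) in tdTomatoneg eGFP+, with exact intervals for counting error. With all libraries pooled, its UMIs were found in 26.8% of members and 23% of comparison cells. These shares cannot be compared directly, because members were deeper and the mix of libraries differed. The tdTomato+ eGFPneg library gave 327 of 1480 members and 523 of 3597 comparison cells. The call was lost in 4 of 22 alternatives, among them thinning and the split of each cell's UMIs, although the fold stayed between -1.76 and -0.79.

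*Cxcl12*, which draws CXCR4-bearing cells, was at 626, 1023, 841 and 791 CPM in members and 1113, 1781, 1199 and 1229.8 CPM in comparison cells. It was lower in members in each library, and the fold of -0.69 ± 0.15 missed 1.5 in at least 1 library. *Ccl19*, which draws T cells and dendritic cells, was at 46.5, 98.1, 45.6 and 96.8 CPM against 99.4, 125, 68.3 and 191 CPM. *Cxcl9*, an interferon-induced T cell chemokine, and *Ccl2*, which draws monocytes, had folds of -0.14 ± 0.13 and 0.00 ± 0.13. Receptors and immune display were close to the comparison cells as well. Of growth factor and cytokine receptors, 0 of 26 genes read were called higher and 0 lower, with a median log2 fold of -0.12. *Pdgfra* was at 179, 244, 165 and 162 CPM against 219, 320.2, 262 and 225 CPM, and *Pdgfrb* at 143, 115, 108 and 81.9 CPM against 144, 126, 112 and 80.9 CPM. Of antigen presentation genes, 0 of 19 genes read were called higher and 0 lower, with a median log2 fold of -0.12, and of interferon-stimulated genes, 0 of 16 genes read were called higher and 0 lower, with a median log2 fold of -0.09. *B2m*, the light chain of MHC class I, was at 3206, 3896, 3553 and 2269 CPM against 3741, 4569, 4664 and 2306 CPM. *Il1r1*, the receptor of interleukin 1, was at 385, 503, 391 and 259.6 CPM against 455, 691, 591 and 316 CPM, not called. *Fap*, the fibroblast activation protease, had a fold of -0.54 ± 0.31 and the adhesion molecule *Vcam1* of -0.08 ± 0.27, neither called.

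The genes of the universal fibroblast, a resting state described in many tissues, were the matrix-side list with the lowest median among those not used in the gate. Of this list, 0 of 10 genes read were called higher and 1 lower, with a median log2 fold of -0.66. *Pi16*, a peptidase inhibitor that marks this state, was at 14.7, 51.6, 11.1 and 90.3 CPM in members against 64.2, 124, 30.6 and 269.7 CPM, and was found in 28.6% of members and 40.9% of comparison cells. *Dpep1*, a dipeptidase, was at 23.2, 37.7, 24.7 and 70.2 CPM against 60.7, 74.3, 32.6 and 212 CPM. Over the alternatives the list's median ran from -0.92 to -0.26, and in cells of 5000 to 20000 UMIs it was -0.44.

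Of the 12 mesothelial markers, 1 was called higher and none lower, with a median log2 fold of 0.35. This median turned to -0.27 with at least 6 matrix genes, -0.22 in thinned cells and -0.03 in cells of 5000 to 20000 UMIs, and its range over the alternatives was -0.56 to 1.03. The called gene was the keratin *Krt8*, at 9.38, 0.839, 2.47 and 45.3 CPM in members and 4.23, 0.194, 0 and 18.2 CPM in comparison cells, low in both outside the tdTomatoneg eGFPneg library. Its fold turned to -0.16 when the gates and the levels came from separate UMIs, and to -0.52 in cells with only *Xist*. The call was lost, with the fold above 0, in 4 further alternatives, among them thinning and the depth window. *Wt1*, a transcription factor of the mesothelium that fibroblasts of the peritoneum can also express, was at 122, 152, 111 and 93.4 CPM against 98.7, 155, 134 and 92.8 CPM. With cells of at least 2 mesothelial genes left out of both groups, the replication list kept a median of 2.29 and the collagens had one of -0.13.

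Outside the lists, the 10 genes with the largest folds among those called higher were *Esco2*, *Dlgap5*, *Cdca2*, *Depdc1a*, *Prr11*, *Cep55*, *Shcbp1*, *Pimreg*, *Mxd3* and *Ska1*, with log2 folds of 5.51 to 6.72. *Esco2*, which joins sister chromatids in S phase, was at 31.8, 44.7, 38.2 and 40.8 CPM in members and 0, 0.194, 0 and 0.671 CPM in comparison cells. *Cep55* acts in the final cut between daughter cells, and was at 43.6, 52, 81.4 and 38.9 CPM against 0.705, 1.16, 0 and 1.4 CPM. All 10 had at most 1 UMI in the comparison cells of at least 1 library, so the size of the fold depends on the 0.5 UMI added.

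Among genes called lower outside the lists, the 10 with the largest folds were *Inmt*, *Angptl7*, *Ces1d*, *Opcml*, *Slfn5*, *Pla2g2e*, *Galnt15*, *Tcp11l2*, *Adra1b* and *Snhg11*. *Slfn5*, a Schlafen family gene, was the most abundant of them, at 32.2, 35.2, 11.1 and 45.7 CPM in members against 119, 146, 111 and 169.7 CPM in comparison cells, a log2 fold of -2.27 ± 0.66. It was found in 28.4% of members and 53.8% of comparison cells although members were deeper, and it was called lower in all 22 alternatives. *Tcp11l2* was also called lower in all 22, at 3.26, 2.52, 3.7 and 3.16 CPM against 11.3, 14.9, 23.4 and 11.6 CPM. *Inmt*, an amine methyltransferase, held 45 UMIs in members and 566 in comparison cells, and its call was lost in cells of 5000 to 20000 UMIs. *Galnt15* held 8 UMIs over all members and *Angptl7* held 12, so the folds of these 2 genes rest on few transcripts.

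**Figure D3:**
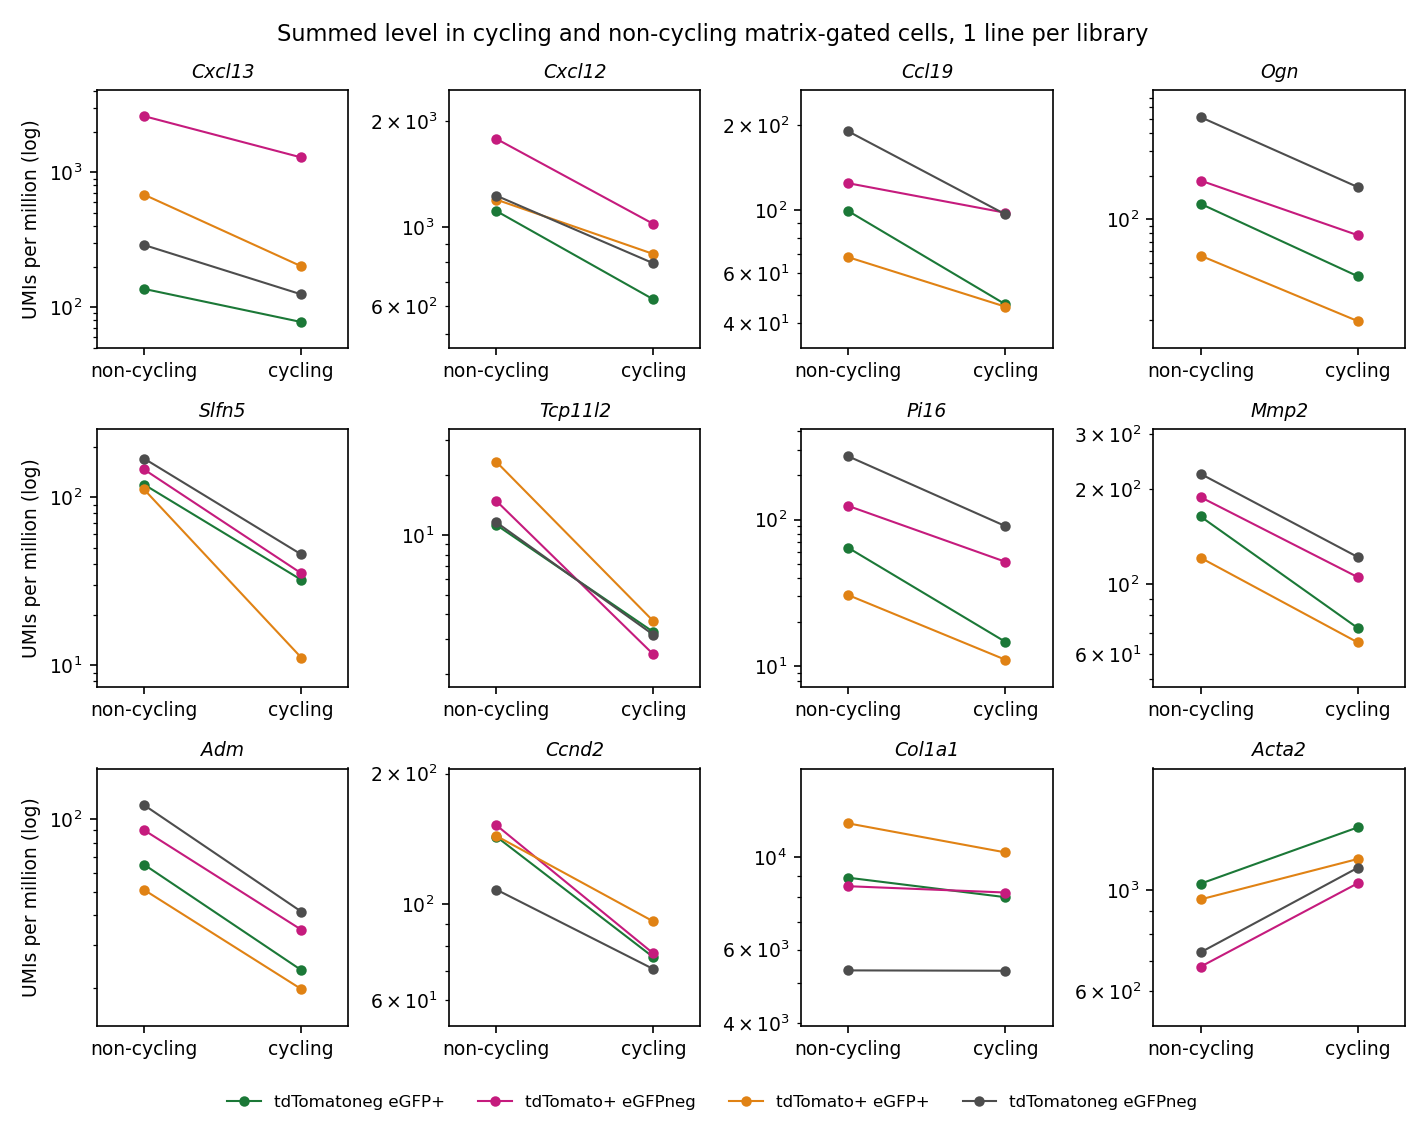
Level in CPM (log axis) of chosen genes in members and comparison cells, 1 point per library. *Slfn5* and *Tcp11l2* were called lower in members, and *Col1a1* was not called.

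Cycling cells that failed the matrix gate shared most of the higher calls with members. Of genes read in both comparisons, 601 were called higher both in members and in cycling cells without the gate, which was 89.8% of the calls in matrix-gated cells and 74.8% of the calls in the others. For lower calls the shared number was 48, or 32.9% and 17.0%. In the cells failing the gate, cycling against at most 1 cycle gene, 5.75% of genes read were called higher and 2.39% lower. *Hmgb2*, a chromatin protein outside the gates, had a log2 fold of 3.15 with the matrix gate and 3.13 without it. The 2 comparisons use different cells of the same libraries.

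The 2 kinds of cycling cell differed in the matrix programme that the gate selects. Members against cycling cells failing the gate gave 6.45% of genes read higher and 4.1% lower. Beyond the gate genes, 14 of 18 collagens, 12 of 22 other matrix proteins and 12 of 30 chemokines and cytokines were higher in members, while 1 collagen and 1 chemokine or cytokine were lower. Of antigen presentation genes 4 of 19 were lower, and of interferon-stimulated genes 3 of 16, with 0 higher in either list. *Col1a1* was at 1975 to 4914 CPM over the libraries in cycling cells failing the gate, against 5337 to 10254 CPM in members. *Cxcl9* was at 93.9 to 271 CPM against 1381 to 1861 CPM, and *Tnc*, the matrix protein tenascin C, at 26.1 to 132 CPM against 631 to 948 CPM. *Ccl2* was not among the genes called, with a log2 fold of -0.12. All 12 mesothelial markers were lower in members, with a median log2 fold of -3.04, and at least 5 of them were detected in 43.2% of cycling cells failing the gate. The list medians of the replication, nucleotide, histone and mitotic genes in this comparison lay between -0.27 and 0.01.

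The difference of the 2 folds was read within each library. It passed 1.5 in the higher direction for 0.472% of genes read and in the lower direction for 0.139%. For *Tnc* the difference was 1.01 ± 0.32, from a fold of 0.05 in matrix-gated cells and -0.96 in the others. *Cthrc1*, a secreted protein of activated fibroblasts, gave 0.92 ± 0.23 and *Timp1* 0.72 ± 0.15. In these 3 matrix genes the mean level of cycling cells was below that of non-cycling cells outside the gate and close to it inside. The gate selects for matrix transcripts on 1 side only. The groups outside the gate also differed in make-up. At least 5 mesothelial markers were detected in 43.2% of the cycling and 21.3% of the non-cycling cells there. The part of the gate and of this make-up in the difference of the folds was not tested.

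**Figure D4:**
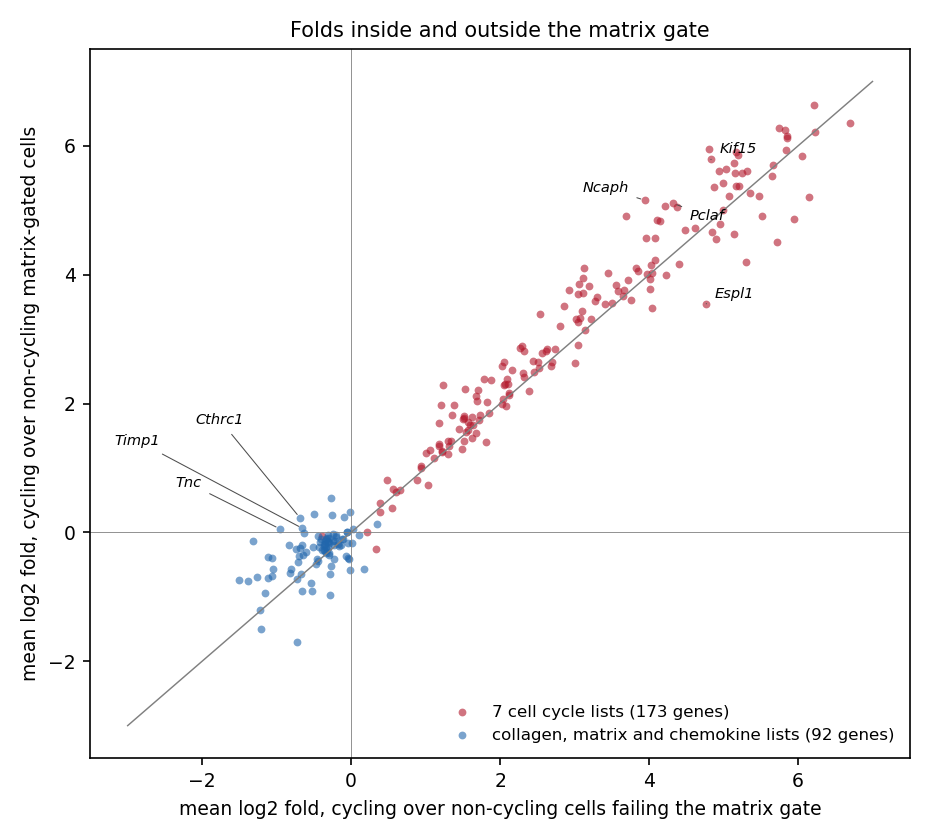
Log2 fold of cycling over non-cycling cells in matrix-gated cells (vertical axis) against the same fold in cells failing the gate (horizontal axis), 1 point per gene, means over 4 libraries, with the line of equal folds. Division genes lie near the line, with larger list medians inside the gate than outside, such as 2.31 against 1.88 for the replication list. *Tnc*, *Timp1* and *Cthrc1* lie above the line near 0 on the vertical axis.

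The members varied in the balance of replication and mitotic transcripts. The replication list had a median of 1237 CPM per member (10th to 90th percentile 444 to 2994), and the mitotic lists together a median of 3809 CPM (1523 to 8803). Replication genes outweighed mitotic genes in 271 members, or 18.3%, and by library in 19.5%, 19.0%, 21.2% and 17.7%. That share depends on the sizes of the lists, since the mitotic lists hold more genes. It and the counts that follow also depend on the gate, since members were chosen by 8 cycle genes and comparison cells held at most 1 of them. The ratio of replication to mitotic CPM was 0.73 in matrix-gated cells with 4 cycle genes and 0.21 in those with 8. Against the 95th percentile of comparison cells for each sum, 750 members (50.7%) were above it for both, 653 (44.1%) for the mitotic lists only, 48 (3.24%) for the replication list only and 29 (1.96%) for neither. Across members of all libraries the 2 sums had a Spearman rho of -0.35, a description over 1480 cells that share libraries and a total to which both sums contribute.

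Members were then ranked within each library by the log ratio of the 2 sums and divided into 3 equal groups, called replication-leaning, middle and mitosis-leaning. The groups are ranges and not cell types, since 128 members lay within 0.1 log2 of a limit, and in the tdTomato+ eGFP+ library they held only 17 or 18 cells each. Genes of the ranking lists were used to form the groups, and the genes below were not. *Ccne1*, the cyclin that opens S phase, was lower in each successive group, at 45.4, 18.9 and 3.85 CPM as means of the 4 libraries. *Ccne2* was at 52.1, 9.57 and 0.626 CPM and the transcription factor *E2f1* at 35.5, 16.1 and 4.9 CPM, each in the same order. *Ube2c*, a gene of the cycle gate, ran the other way at 142, 578 and 1145 CPM.

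The replication-dependent histone genes were as high in the middle group as in the replication-leaning group, at 1221, 1214 and 326 CPM, and lower in the mitosis-leaning group. *Hmgb2* was higher in each successive group, at 414, 625 and 739 CPM. The inhibitor *Cdkn1a* was at 159, 142 and 72.1 CPM, higher in the replication-leaning than in the mitosis-leaning group in each library. Ribosome biogenesis genes summed to 2977, 2448 and 2274 CPM, also higher in the replication-leaning group in 4 of 4 libraries.

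Matrix and contractile transcripts varied little along this order. The collagens summed to 35975, 38920 and 39176 CPM, a log2 difference of -0.13 ± 0.08 between the first and last group that was below 0 in 4 of 4 libraries. *Col1a1* was at 7177, 8288 and 8391 CPM. *Acta2* was at 1058, 1222 and 1245 CPM, with opposite order in 2 libraries each. Chemokines and cytokines summed to 13769, 12928 and 11054 CPM, a log2 difference of 0.31 ± 0.25 between the first and last group. Their sum was higher in the replication-leaning group in 4 of 4 libraries. In tdTomatoneg eGFP+ the 2 groups were almost equal, at 11624 and 11585 CPM. *Cxcl13* was at 90.4, 1839.9, 114 and 109.6 CPM in the replication-leaning group and 45.3, 785, 361 and 138 CPM in the mitosis-leaning group, with opposite order in 2 libraries each. At least 5 mesothelial markers were detected in 12.7%, 17.8% and 6.91% of the 3 groups, and their median depths were 13237, 13069 and 12238 UMIs.

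**Figure D5:**
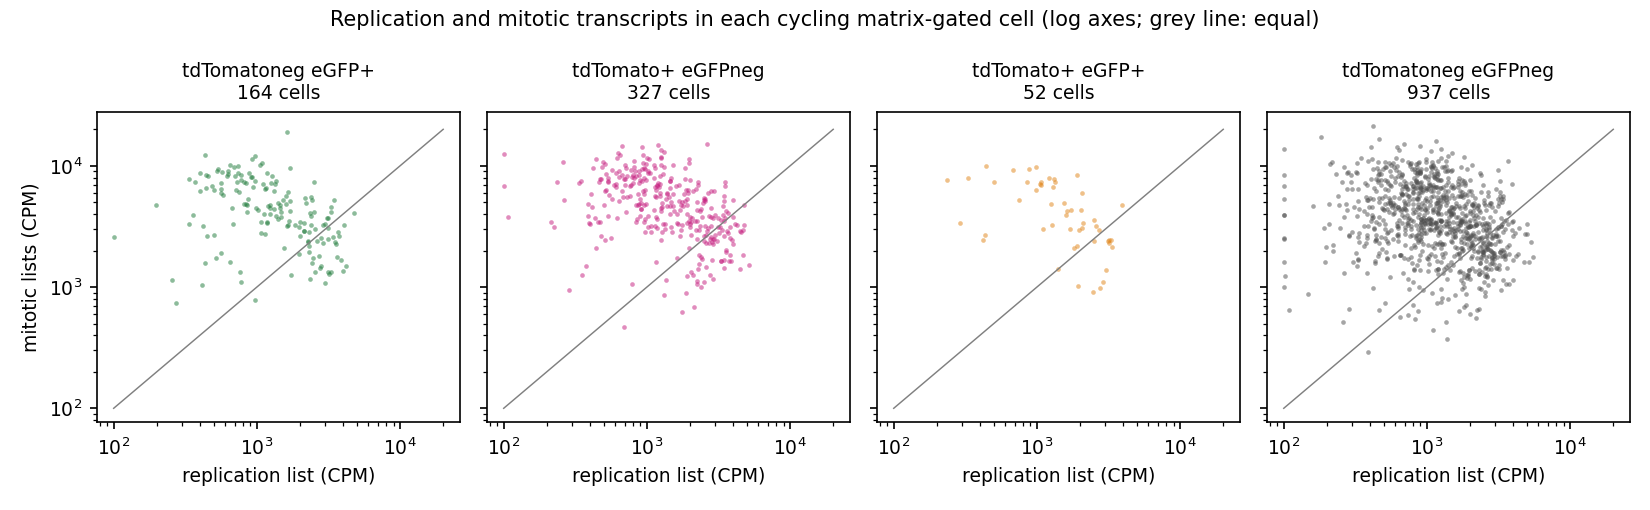
Summed CPM of replication genes (horizontal, log axis) and mitotic genes (vertical, log axis), 1 point per member, in the 4 libraries. Cells under 100 CPM are drawn at 100. The points form a continuous band in which mitotic genes outweigh replication genes in most members. This balance depends on the cycle gate and on the sizes of the lists.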

How the data were processed

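UMI counts per gene and barcode, deposited by the authors without normalization, were used for 4 libraries of 10x Genomics 3′ chemistry. The file headers name Cell Ranger 8.0.0, and the submitters' processing notes name Cell Ranger 10.0.0, STAR, Seurat 5.0 and GRCm39. Counts were read with Python 3.11.15, numpy 2.4.6, scipy 1.17.1 and pandas 2.3.3. The members and lists were chosen with earlier results of these data known. Cells were gated as given above, without clustering or removal of doublets. Each group's UMIs were added up within a library, scaled to CPM and compared as log2 ratios with 0.5 UMI added, in libraries with at least 50 cells in both groups. No count model was run, because each population has 1 library. Exact 95% intervals cover counting error only. Thinning used seed 1. Gate genes, 8 genes of interest, the 2 to 4 called genes with the largest folds in each list (otherwise the 2 most abundant) and the 10 largest on each side outside the lists were named. *Acta2*, *Ccl2*, *Ccnd1*, *Ccnd2*, *Ccne1*, *Cdk4*, *Cdkn1a*, *Cthrc1*, *Dcn*, *Dpep1*, *E2f1*, *H2az1*, *Hmgb2*, *Mcm5*, *Ncl*, *Pcna*, *Smc2*, *Timp1*, *Tnc*, *Tubb5* and *Wt1* were chosen after their values were seen, as were the 4 promoters printed. Alternatives changed 1 choice at a time, except 1 that joined the depth window and the mesothelial limit, and the gates on a random part of the UMIs. The latter also needed 1 gene fewer in each gate. Scripts were tested on simulated data.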

Additional observations from a re-analysis of the deposited data

Results flagged for a closer look

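Some cells outside the comparison passed both gates. There were 45 cells with more than 6000 genes that otherwise passed, with a median of 35960 UMIs and 6306 genes, and 10 of them held both *Xist* and a Y-linked UMI. A further 53 cells passed both gates but were dropped for a *Ptprc* UMI (25 cells) or a *Pax3* UMI (28 cells), with a median of 21295 UMIs. Between members and comparison cells lay 502 matrix-gated cells with 2 or 3 cycle genes, with a median of 10178 UMIs, which entered neither group.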

How the results depend on the processing

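No paired analysis was possible because each population has 1 library, and the shared replicate number 1 does not link animals. The following values differed from those above by more than their interval or 1.5 times, and the cause was not tested. With at least 6 cycle genes the share of members was 18.9% and 356 genes were lower, and with at least 6 matrix genes the share was 30.6%. Thinned cells gave 489 members, a share of 14.8%. Gates on a random part of the UMIs, which also needed 1 gene fewer in each gate, gave 100 lower genes. The share was 24.1% without expected doublets. With at most 1 mesothelial gene it was 23.2%, with 318 lower genes. *Xist*-only cells gave 528 members, a share of 28.4% and 361 lower genes, and Y-only cells 442 members and a share of 32.6%. UMIs pooled over libraries gave 1286 higher and 995 lower genes, and a 2-fold limit 452 higher and 33 lower genes. Leaving out 1 library gave 543 to 1428 members, shares of 24.8 to 34.4%, and 176 to 308 lower genes. Settings that left the tdTomato+ eGFP+ library under 50 cells in a group used 3 libraries. Higher calls were otherwise between 509 and 798. *Krt8* turned from a log2 fold of 1.68 to -0.16 in the split of UMIs and -0.52 in *Xist*-only cells. Cells of 5000 to 20000 UMIs with at most 1 mesothelial gene, chosen after seeing the data, gave 835 members, a share of 29.4%, and 724 higher and 217 lower genes. The shares of 31.1% in cells of 5000 to 20000 UMIs and of 25.2% with gates on a random part of the UMIs were also computed after seeing the data. Depth limits low genes, and cells under 3000 UMIs could not enter the thinned shares.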
